A study of Homo sapiens with 7 samples.

Results

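The expression and transcription initiation of 10 genes that mark the epithelial or the mesenchymal state of a cell were described in T-47D cells, a human luminal breast cancer cell line. The 10 genes are CDH1, EPCAM, CDH2, VIM, FN1, ZEB1, ZEB2, SNAI1, SNAI2 and TWIST1. They were taken by symbol from the 26175 genes of the RNA-seq table, which lists all 10. The study's methods call the cells T47D/A1-2, a derivative of the 1 cell line T47D. This derivative overexpresses rat glucocorticoid receptor and holds an integrated MMTV luciferase reporter gene. There was 1 growth condition, in which cells were grown with 10% fetal bovine serum and kept with 5% charcoal-stripped serum for at least 24 hours before harvest. Steady-state RNA was measured by RNA-seq of polyadenylated RNA, as fragments normalized for transcript length and library size (FPKM), in 3 replicates that the authors merged into 1 value for each gene. Transcription initiation was measured in replicate 1 of Start-seq, which sequences the 5´ ends of short capped nuclear RNAs, and deposited as single-nucleotide positions without read counts. The second Start-seq library and the libraries of nucleosomal (MNase-seq) and open (FAIRE-seq) DNA were left unused here. With 1 value for each gene and 1 set of calls there is no error between replicates, and no difference below was tested.

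Epithelial cells are held to each other by junctions built on E-cadherin, the product of CDH1, whereas mesenchymal cells are less attached, produce more extracellular matrix and use vimentin as their intermediate filament. In the epithelial-mesenchymal transition (EMT), seen in development, wound repair and carcinoma, transcription factors of the SNAI, ZEB and TWIST families repress epithelial genes. The zinc finger factors of the SNAI and ZEB families bind the DNA core CACCTG, a kind of E-box, and E-cadherin is their best known target.

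The labelled cell type was checked against marker genes. All 7 luminal epithelial markers had FPKM values between 44.1 for ESR1, the estrogen receptor, and 1142 for KRT8, a luminal keratin. Among markers of other cells, 1 of 5 basal or myoepithelial markers (ACTA2, 3.20 FPKM), 1 of 6 fibroblast markers (COL1A1, 8.82 FPKM) and 0 of 4 endothelial markers reached 1 FPKM. The basal markers KRT5 and KRT14 and the endothelial markers CDH5 and KDR were listed at 0. The basal TP63 (0.517 FPKM) and KRT17 (0.125 FPKM) and the endothelial VWF (0.108 FPKM) and PECAM1 (0.00291 FPKM) were low but above 0. Several luminal and fibroblast markers are counted again in the lists below. The 12 genes used by every cell were listed at 12.6 FPKM or more.

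CDH1 and EPCAM stood near the top of the transcriptome, FN1 and TWIST1 at intermediate levels, VIM, SNAI1 and CDH2 below 1 FPKM, and ZEB1, ZEB2 and SNAI2 were listed at 0. An FPKM value of at least 1 was reached by 4 of the 10 genes, CDH1, EPCAM, FN1 and TWIST1, against 46.9% of all genes. The 3 genes listed at 0 shared that value with 7888 genes, or 30.1% of the table. The lower of CDH1 and EPCAM lay above the highest of CDH2, VIM and FN1, which is a comparison of few genes and was not tested. In a culture, fewer cells that make an RNA and less of that RNA in each cell cannot be told apart.

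**Figure D1:**
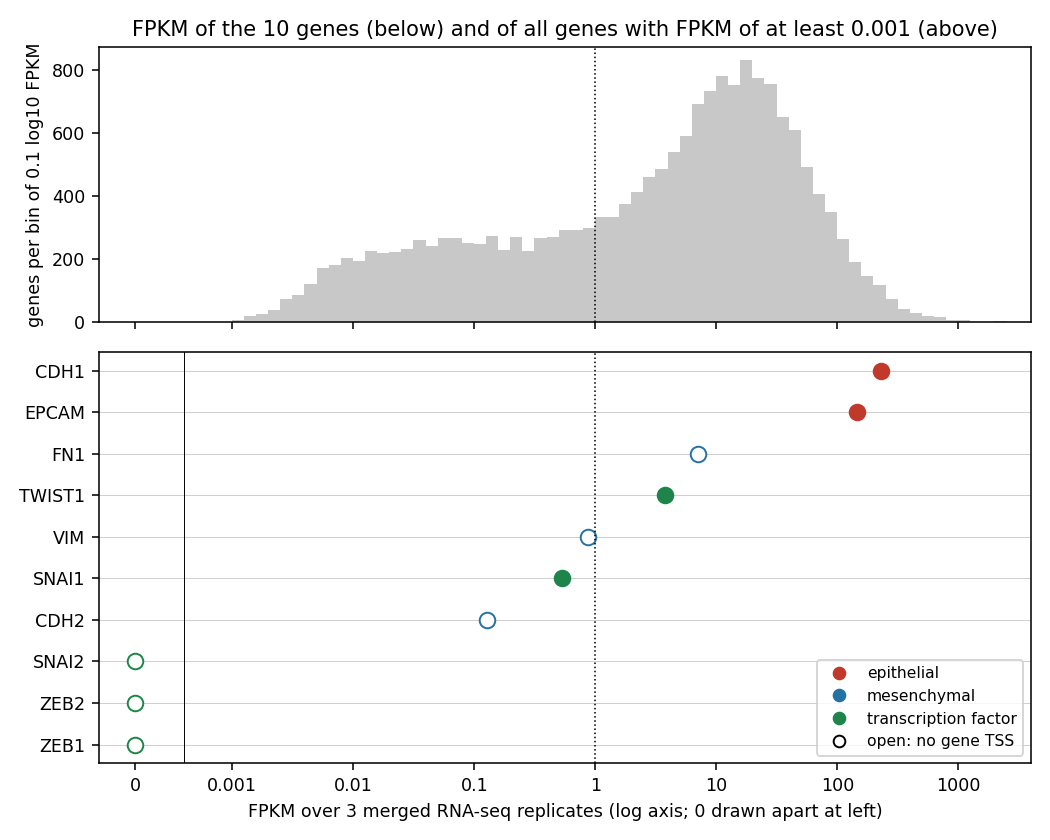
FPKM of the 10 genes (lower panel, log axis, with values listed at 0 drawn apart at the left) under the distribution of all genes with FPKM of at least 0.001 (upper panel, genes for each bin of 0.1 log10 FPKM). Each circle is 1 merged value without error, filled where a gene TSS was called, and the dotted line marks 1 FPKM. CDH1 at 229.9 and EPCAM at 146 lie in the upper tail, and FN1 is the highest gene drawn with an open circle, at 6.99.

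CDH1, the cadherin of the adherens junction, had an FPKM value of 229.9, which ranked 239 of 26175 genes, with 99.1% of genes lower. EPCAM, a cell surface protein of epithelia that is used to capture carcinoma cells, had 146 FPKM and ranked 510, with 98.1% of genes lower. Of the catenins that bind cadherins at the junction, JUP lay above both genes, at 442 FPKM, and CTNND1 (131 FPKM), CTNNA1 (126 FPKM) and CTNNB1 (115 FPKM) lay below both.

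Among the mesenchymal genes, FN1, which encodes the matrix protein fibronectin, was highest, at 6.99 FPKM and rank 8474. VIM, the intermediate filament of mesenchymal cells, had 0.864 FPKM and rank 12486. CDH2, or N-cadherin, which takes the place of E-cadherin in many cells that pass through EMT, had 0.128 FPKM and rank 14659, with 44.0% of genes lower. FN1 thus lay above most genes of the table, and VIM and CDH2 near its middle, where many genes are at or near 0. Among genes with a called gene TSS, 22.4% were lower than VIM and 16.4% lower than CDH2.

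The 2 cadherins differed by 9.98 on the log2(FPKM + 0.1) scale, in favor of CDH1. On the same scale CDH1 exceeded VIM by 7.90 and FN1 by 5.02, and EPCAM exceeded VIM by 7.25. These differences depend on the pseudocount of 0.1 where the lower gene is near 0, and no error can be attached to them.

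Of the 5 transcription factors, TWIST1, a basic helix-loop-helix factor, was the only one at or above 1 FPKM, at 3.74 FPKM and rank 10005, with 61.8% of genes lower. SNAI1, the zinc finger factor also called Snail, had 0.528 FPKM and rank 13088, which is the median of all genes, whereas 20.5% of genes with a called gene TSS were lower. SNAI2, or Slug, and the zinc finger homeobox factors ZEB1 and ZEB2 were listed at 0. Depth is unknown for a merged FPKM value, so a listed 0 gives no upper limit. Antisense genes named after a gene of the set were in the table for VIM, ZEB1 and ZEB2. ZEB1-AS1 was listed at 0.372 FPKM beside a ZEB1 value of 0, VIM-AS1 at 0.0621 FPKM and ZEB2-AS1 at 0. Gene TSSs were searched only around RefSeq mRNA starts, so these non-coding genes could not have a call of their own. The RNA-seq libraries were strand-specific, but whether strand was used in counting is not given in the sources used here, so reads of overlapping antisense pairs may not be fully separated.

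A transcription start site (TSS) was called by the authors where 5 or more Start-seq reads began at 1 nucleotide. Gene TSSs were searched within windows around RefSeq mRNA starts. Antisense calls were then searched up to 1000 nts upstream of each gene TSS (upstream antisense TSS, uaTSS) and up to 2000 nts downstream of it (downstream antisense TSS, daTSS). The authors filtered out daTSSs that could be a miscalled gene TSS or uaTSS, so a missing daTSS may be a removed one. Gene TSSs were taken as those inside the gene's locus widened by 1000 nts on each side. By this rule 4 of the 10 genes, CDH1, EPCAM, SNAI1 and TWIST1, had a gene TSS, 1 each, against 49.9% of all genes. All 4 gene TSSs lay on the strand of their gene. A uaTSS accompanied each of the 4 gene TSSs, against 53.1% of all 10391 gene TSSs and 29.3% of all genes. A daTSS accompanied 2 of them, those of EPCAM and TWIST1, against 28.4% of gene TSSs and 16.0% of all genes. Both antisense calls were thus present at EPCAM and TWIST1, as at 17.5% of gene TSSs. The shares over all genes, here and below, include gene TSSs of neighbors that lie in the same locus. They also include non-coding entries, around whose starts no gene TSS was searched.

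At CDH1 (ENSG00000039068) the gene TSS was called at chr16:68771195 on the plus strand in hg19, the first base of exon 1 and of the 5´ untranslated region. Its uaTSS lay at 68771043 on the minus strand, outside the gene and 152 nts upstream. For comparison, 34.3% of uaTSSs lay closer to their gene TSS, and the median distance was 200.0 nts with quartiles of 127 and 329.5 nts. CDH1 was the gene of the set with the highest FPKM value and had no daTSS in the authors' filtered calls.

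EPCAM (ENSG00000119888) had the most compact arrangement of the 4. The gene TSS at chr2:47596448 on the plus strand lay 2 nts before the annotated start. The uaTSS at 47596395 was 53 nts upstream, and 4.46% of uaTSSs lay closer. The daTSS at 47596618 was 170 nts downstream, in the untranslated part of exon 1, and 7.85% of daTSSs lay closer, the median being 507 nts. From uaTSS to daTSS the EPCAM calls spanned 223 nts, and 2.26% of the 1815 gene TSSs with both antisense calls had a shorter span.

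At SNAI1 (ENSG00000124216) the gene TSS at chr20:48599517 on the plus strand was the annotated start, and the uaTSS at 48599245 lay 272 nts upstream, outside the gene. A shorter distance was found for 66.1% of uaTSSs. SNAI1 thus had a called gene TSS and uaTSS at 0.528 FPKM, below VIM (0.864 FPKM) and FN1 (6.99 FPKM), which had none. Among the 1666 genes with FPKM values within 2-fold of SNAI1, 40.5% had a gene TSS in their locus.

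TWIST1 (ENSG00000122691) was the only gene of the set called away from its annotated start. Its gene TSS at chr7:19156454 on the minus strand lay 805 nts downstream of the start of the MANE transcript, inside the coding part of exon 1 and 93 nts from another annotated TWIST1 start. Of all gene TSSs, 18.9% lay as far or farther from an annotated start on their strand. The uaTSS at 19156843 on the plus strand, 389 nts upstream, was also in the coding part of exon 1, and 81.8% of uaTSSs lay closer. The daTSS at 19156235, 219 nts downstream, was in intron 1, and 13.7% of daTSSs lay closer. All 3 calls were therefore inside the transcribed region of TWIST1, with a span of 608 nts between the antisense calls.

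Relative to exon 1, the daTSS fell before the exon's end at EPCAM, which is 272 nts past the gene TSS, and after it at TWIST1, where the end is 160 nts past the gene TSS. In CDH1 and SNAI1, the genes without a called daTSS, the first exon reached 171 and 161 nts past the gene TSS.

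Initiation by RNA polymerase II often falls on a purine preceded by a pyrimidine, and the bases at −1 and +1 were read for all calls of the 4 genes. The pair was pyrimidine then purine at all 4 gene TSSs, against 66.1% of all gene TSSs. It was so at 3 of the 4 uaTSSs, against 64.7% of all uaTSSs, and at 1 of the 2 daTSSs, against 66.9% of all daTSSs. The exceptions were the EPCAM uaTSS and the TWIST1 daTSS. The 21 nts around the 5 calls that lie outside the window from 250 nts before to 50 nts after the MANE start are shown, read from GRCh37 in the direction of transcription, with −1 and +1 in capitals, because they give the letters at which these antisense RNAs, and the TWIST1 call in coding sequence, begin.
EPCAM daTSS, chr2:47596608-47596628, minus strand: gaagaggggCGcgggaggggc
SNAI1 uaTSS, chr20:48599235-48599255, minus strand: gcgggacgtCGagcgaagcga
TWIST1 gene TSS, chr7:19156444-19156464, minus strand: caggtcctcCAgagcgacgag
TWIST1 uaTSS, chr7:19156833-19156853, plus strand: tgcgtccccCGcgcttgccgc
TWIST1 daTSS, chr7:19156225-19156245, plus strand: gaaccgcggCCtggccggcct
The EPCAM daTSS and the SNAI1 and TWIST1 uaTSSs began on the G of a CpG dinucleotide, the TWIST1 gene TSS on an A, and the TWIST1 daTSS on a C.

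The 6 genes without a gene TSS were CDH2, VIM, FN1, ZEB1, ZEB2 and SNAI2. Their nearest called gene TSSs belonged to other genes and lay 26894 nts away for VIM (at TRDMT1), 123820 nts for FN1 (ATIC), 187052 nts for ZEB2 (GTDC1), 286857 nts for ZEB1 (ZNF438), 912997 nts for SNAI2 (UBE2V2) and 1519917 nts for CDH2 (KCTD1). Widening the loci further to 5000 nts therefore added no call.

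A gene TSS was more frequent at higher FPKM over the whole table, from 18.6% of genes listed at 0 to 91.8% of the 920 genes at 100 FPKM or more. Of all genes with FPKM of at least 1, 81.8% had a gene TSS, and of those below 1, 21.7%. Against this background FN1 was the only one of the 4 genes at or above 1 FPKM without a gene TSS. Of the 3949 genes with FPKM values within 2-fold of FN1, 80.2% had one. For VIM the corresponding share was 46.8% of 1851 genes, and for CDH2 it was 27.2% of 1534 genes. CDH1 and EPCAM had calls as did 91.4% and 90.1% of the genes near them in FPKM, and TWIST1 as did 71.8%. This comparison by FPKM was added after the calls had been seen.

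**Figure D2:**
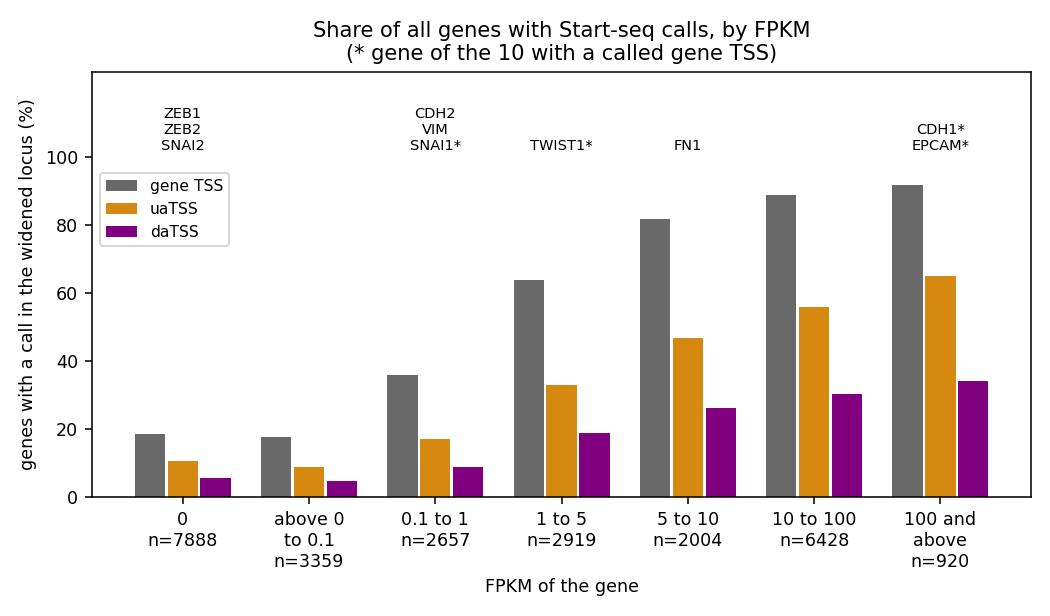
Share of all genes with a gene TSS, a uaTSS or a daTSS in their widened locus (y axis, percent) by FPKM (x axis, 7 classes with the number of genes), with the 10 genes named above their class and an asterisk where a gene TSS was called. FN1 stands in the class from 5 to 10 FPKM, where 81.6% of 2004 genes had a gene TSS, and SNAI1 in the class from 0.1 to 1 FPKM, where 36.0% of 2657 genes had one.

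The other genes of the epithelial and mesenchymal programs were counted in lists chosen by function. The 5 epithelial lists together held 67 genes, of which 66 had FPKM of at least 1, with a median of 56.5 FPKM. The 2 mesenchymal lists together held 33 genes, of which 11 had FPKM of at least 1, with a median of 0.0661 FPKM. These 2 lists were unlike, with medians of 0.0449 FPKM for matrix genes and 2.73 FPKM for cytoskeleton and surface genes. Of all genes, 46.9% had FPKM of at least 1, and the median was 0.528 FPKM, with quartiles of 0 and 12.6. In their loci, 58 of the 67 epithelial genes had a gene TSS, 44 a uaTSS and 30 a daTSS, and 10, 6 and 2 of the 33 mesenchymal genes did. Over all genes these shares were 49.9%, 29.3% and 16.0%, and over genes between 10 and 100 FPKM, the class that holds the epithelial median, they were 88.7%, 55.8% and 30.3%. Over genes above 0 and below 0.1 FPKM, the class of the mesenchymal median, they were 17.8%, 8.87% and 4.70%. That class does not match all 33 mesenchymal genes, since 11 had at least 1 FPKM. Of these 11, 8 had a gene TSS, against 81.8% of all genes with FPKM of at least 1. Of the 22 below 1 FPKM, 2 had one, against 21.7% of all genes below 1. Neither CDH1 and EPCAM nor CDH2, VIM and FN1 are counted in these lists.

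Genes of the adherens junction list were all 10 above 1 FPKM, with a median of 82.4 and JUP, or plakoglobin, highest at 442, followed by CTNND1 at 131, CTNNA1 at 126, PVRL2 at 117 and CTNNB1 at 115. All 19 tight junction and polarity genes were above 1 FPKM, with a median of 33.9, led by the claudins CLDN4 at 294 and CLDN3 at 186, and then F11R at 92.9, CLDN7 at 82.8 and TJP3 at 67.2. All 10 desmosome and keratin genes were above 1 FPKM, led by KRT8 at 1142, KRT19 at 936 and KRT18 at 555, with the desmosomal DSP at 74.3 and PKP3 at 56.5. Each of these lists holds cell contact or filament proteins of epithelia.

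Transcriptional and splicing regulators of the epithelial state were all 14 above 1 FPKM, with a median of 50.2, led by GATA3 at 360, ELF5 at 135, FOXA1 at 113, and the splicing factors ESRP1 at 85.6 and ESRP2 at 60.8. Of 14 epithelial membrane proteins, 13 were above 1 FPKM, with a median of 185, led by MUC1 at 343, the protease inhibitor SPINT1 at 286, ERBB3 at 259, SPINT2 at 258 and ST14 at 250.4. The exception was S100A14 at 0.436 FPKM. ERBB3 is a receptor of the epidermal growth factor receptor family.

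Mesenchymal matrix genes reached 1 FPKM in 3 of 18 cases, against 46.9% of all genes, with a median of 0.0449 FPKM. These were THBS1, or thrombospondin, at 106 FPKM, COL1A1 at 8.82 and COL5A2 at 1.05, followed by MMP9 at 0.386 and FBN1 at 0.126. THBS1 was the only one of the 18 with a gene TSS, and it also had a uaTSS and a daTSS. COL1A1, like FN1, had an FPKM value between 5 and 10 and no gene TSS. Of the mesenchymal cytoskeleton and surface genes, 8 of 15 reached 1 FPKM, near the 46.9% of all genes. Their median was 2.73 FPKM, against 0.528 FPKM over all genes. In their loci, 9 of the 15 had a gene TSS, against 49.9% of all genes. At the stricter cut, 5 of the 15 reached 5 FPKM. Of all 26175 genes, 2004 had 5 to 10 FPKM, 6428 had 10 to 100 and 920 had 100 or more. The highest of the 15 were S100A4 at 69.99, the integrin subunits ITGB1 at 37.1 and ITGAV at 18.6, TAGLN at 8.04 and CD44 at 5.08. CDH11, a cadherin of mesenchymal cells, was listed at 0.

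Of 15 other transcription factors linked to EMT, 7 reached 1 FPKM, a share close to the 46.9% of all genes, and 2 reached 5 FPKM. The numbers of all genes at 5 FPKM or more are given above. Among the 7 were TCF3, the E protein partner of TWIST1, at 21.9, KLF8 at 9.15 and SOX9 at 4.999 FPKM. FOXC1 had 1.60, LEF1 1.33 and SNAI3, a further SNAI factor, 1.15 FPKM. TCF3 had no gene TSS in its locus, whereas KLF8, SOX9, FOXC1, LEF1 and SNAI3 had. TWIST2, the paralog of TWIST1, was listed at 0. The corepressors through which SNAI and ZEB factors act were above 1 FPKM in 9 of 10 cases, with a median of 21.6, led by HDAC1 at 140, CTBP1 at 63.9, KDM1A at 44.4, SUZ12 at 30.2 and SIN3A at 21.7. The exception was LOXL2 at 0.273 FPKM.

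In the pathway of TGF-beta, a ligand that induces EMT in many epithelial cells, 7 of 9 genes reached 1 FPKM, against 46.9% of all genes. Their median was 5.04. The ligand TGFB3 was highest at 43.7, the type I receptor TGFBR1 had 10.2, and the signal transducers SMAD2 and SMAD4 had 8.98 and 5.04 FPKM. SMAD7, which inhibits signaling by the receptors, had 8.10 FPKM. The type II receptor TGFBR2 was listed at 0. Both receptors lacked a gene TSS.

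**Figure D3:**
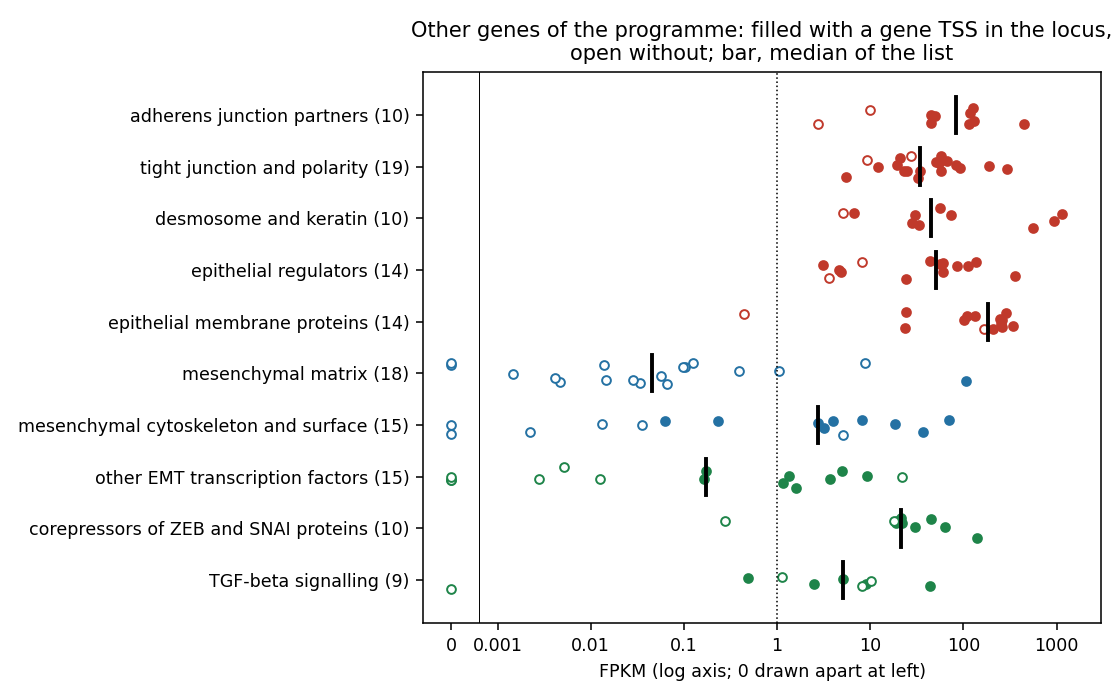
FPKM (log axis, with values listed at 0 drawn apart at the left) of every gene in the 10 lists, with the number of genes in brackets. Each circle is 1 gene, filled where a gene TSS lies in its widened locus, the black bar is the median of the list and the dotted line marks 1 FPKM. The 5 epithelial lists have medians between 33.9 and 185 FPKM, and the mesenchymal matrix list has a median of 0.0449 FPKM with THBS1 apart at 106. The mesenchymal cytoskeleton and surface list has a median of 2.73 FPKM.

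Base composition was read from 250 nts before to 50 nts after each start. At the called gene TSSs, GC content was 66.7% for CDH1, 74.3% for EPCAM, 73.0% for SNAI1 and 68.0% for TWIST1, against a median of 66.0% over all gene TSSs. The ratio of observed to expected CpG dinucleotides, which falls where methylated CpGs have been lost in evolution, was 0.632 for CDH1, 0.873 for EPCAM, 0.930 for SNAI1 and 0.983 for TWIST1, against a median of 0.851. CDH1 thus had a lower ratio than the other 3, and 15.5% of gene TSSs were lower still. The GC box GGGCGG, on either strand, was present in all 4 windows and in 72.4% of all. TATAA between −40 and −20 was present in none of the 4 and in 2.50% of all.

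The RefSeq promoter table (GRCh38.p14) held 5 of the 10 genes, FN1, VIM, CDH2, ZEB1 and ZEB2, all of them without a gene TSS call. It had no entry for CDH1, EPCAM, SNAI1, SNAI2 and TWIST1. GC content was 76.7% at FN1, 48.0% at VIM and 49.0% at ZEB2, 67.0% and 40.7% at the 2 CDH2 starts, and between 42.0% and 72.3% at the 7 ZEB1 starts, against a median of 58.7% over 35116 RefSeq promoters. The corresponding CpG ratios were 0.864 at FN1, 0.584 at VIM, 0.782 at ZEB2, 0.687 and 0.323 at CDH2, and between 0.557 and 1.03 at the ZEB1 starts, against a median of 0.579. The FN1 window held 6 GC boxes and a TATAA between −40 and −20, which 3.91% of RefSeq promoters have. The second CDH2 start also had a TATAA.

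FN1 and VIM are the 2 structural genes with the highest FPKM among those without a gene TSS. The 250 nts upstream of their RefSeq starts are printed with CpG dinucleotides in capitals to show how far these stretches differ.
FN1, chr2:215436069-215436318, minus strand: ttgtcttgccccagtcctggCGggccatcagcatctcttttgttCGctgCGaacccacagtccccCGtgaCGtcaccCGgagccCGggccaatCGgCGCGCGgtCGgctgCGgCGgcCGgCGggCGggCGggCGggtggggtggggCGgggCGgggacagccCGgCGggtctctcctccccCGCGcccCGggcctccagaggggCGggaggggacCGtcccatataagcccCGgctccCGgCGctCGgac
VIM, chr10:17227991-17228240, plus strand: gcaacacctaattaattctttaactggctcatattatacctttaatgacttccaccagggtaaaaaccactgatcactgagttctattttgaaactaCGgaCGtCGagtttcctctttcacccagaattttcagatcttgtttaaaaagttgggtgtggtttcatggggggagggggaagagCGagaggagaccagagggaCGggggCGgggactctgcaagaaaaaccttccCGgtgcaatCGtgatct
The FN1 stretch held 32 CpG dinucleotides and the VIM stretch 8. These genes therefore shared the absence of a call while the stretches at these RefSeq starts stood far apart in base composition. No call shows that either start is used in these cells. The choice of start also matters, since the CDH2 starts had 67.0% and 40.7% GC.

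**Figure D4:**
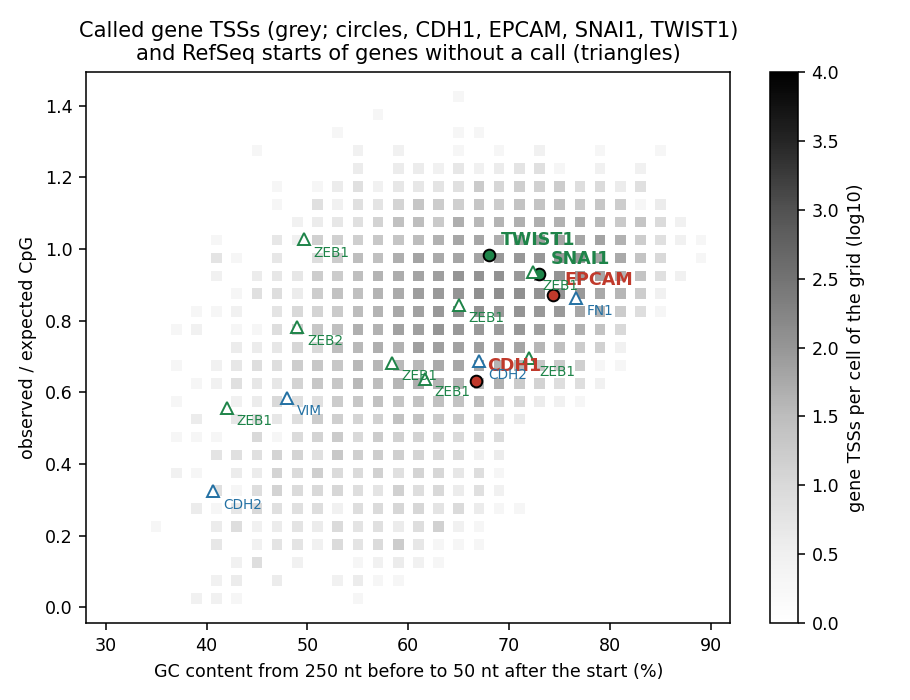
GC content (x axis, percent) and ratio of observed to expected CpG (y axis) from 250 nts before to 50 nts after each start. Grey squares count the 10391 called gene TSSs (scale at the right, log10), circles are the 4 genes with a gene TSS and triangles the RefSeq starts of FN1, VIM, CDH2, ZEB1 and ZEB2. CDH1 at 0.632 lies lowest of the circles, and the triangles spread from 40.7% to 76.7% GC.

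The core CACCTG was searched on both strands (its reverse complement reads CAGGTG) in the same windows. Counting the gene TSS as 0 and giving the first base of each match, it occurred 3 times at CDH1, at −80, −29 and 21, and 3 times at EPCAM, at −221, −185 and −26. It occurred once at SNAI1, at −146, and not at TWIST1. At least 1 match was found in 20.3% of all gene TSS windows, and 3 or more in 0.577%. The windows of CDH1 and EPCAM were thus 2 of only 60 among 10391 with 3 or more matches. In the RefSeq windows, FN1, VIM, CDH2 and ZEB2 had no match, and among the 7 ZEB1 starts start 1, counted from the 5´ end, had 1 match and start 3 had 3, against 0.635% of RefSeq promoters with 3 or more. A match of these letters is not evidence of binding.

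ZEB1 start 3 is shown, with matches in capitals, because it places the core bound by ZEB and SNAI proteins in front of ZEB1 itself. The stretch covers the 250 nts before the start and holds 2 of the 3 matches.
ZEB1, RefSeq start 3, chr10:31318966-31319215, plus strand: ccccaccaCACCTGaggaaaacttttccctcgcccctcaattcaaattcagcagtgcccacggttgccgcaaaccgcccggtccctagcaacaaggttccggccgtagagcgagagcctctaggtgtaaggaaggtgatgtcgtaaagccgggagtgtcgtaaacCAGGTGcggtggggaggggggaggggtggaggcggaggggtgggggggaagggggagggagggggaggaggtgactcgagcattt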

How the data were processed

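Per the study's methods, Start-seq reads were trimmed with Cutadapt 1.2.1 and aligned to hg19 with Bowtie 0.12.8, and RNA-seq reads were aligned with TopHat2 2.0.4, stripped of duplicates, merged over 3 replicates and quantified with Cufflinks 2.2.1. The authors deposited FPKM, 1 value per gene, and TSS positions whose deposited score is 0 throughout. Depth and replicate error are therefore unknown, and no test was run. Calls were joined by shared identifier. Genes were placed with the locus of the FPKM table, exons with GENCODE lifted to GRCh37, and sequence with GRCh37 or RefSeq (GRCh38.p14, never converted). Python 3.11.15, pandas 2.3.3, numpy 2.4.6 and pysam 0.24.0 were used, and the counting steps were tested on simulated data. The genes and lists were chosen with earlier results of these data known. Named list genes are the 5 with the highest FPKM in each list, EMT factors with FPKM of at least 1, and, chosen after their values were seen, exceptions to a count. Some named genes and a marker list are not reported here.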

Additional observations from a re-analysis of the deposited data

How the results depend on the processing

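Of 117 recomputed values, 80 moved by less than their limit, 37 moved and 0 turned in direction. Of the 57 alternatives for counts, 54 stayed within 1.5 times. Of the 10 genes, 6 passed with detection set at 0.5 FPKM, in place of 4, with VIM and SNAI1 added. At 5 FPKM 3 of the 10 passed, without TWIST1. With detection set at 5 FPKM, 7 mesenchymal genes passed in place of 11, of which 5 in place of 8 were cytoskeleton and surface genes, and 2 other EMT factors passed in place of 7. Of all 26175 genes, 12271 had at least 1 FPKM. Those at 5 FPKM or more were 2004 from 5 to 10, 6428 from 10 to 100 and 920 from 100 up. With a window from 500 nts before to 100 nts after the gene TSS, GC content at EPCAM was 62.3% in place of 74.3%. In that window SNAI1 had 2 CACCTG matches in place of 1. The difference between CDH1 and CDH2 was 7.68 with a pseudocount of 1 and 10.70 with 0.01. Among genes with a gene TSS only, the percent of genes lower fell from 44.0 to 16.4 for CDH2, 52.3 to 22.4 for VIM, from the median to 20.5 for SNAI1, and from 67.6 to 42.7 for FN1 and 61.8 to 33.7 for TWIST1. RefSeq start windows for CDH1, EPCAM, SNAI1 and TWIST1 were not run. No paired analysis was possible because the RNA-seq replicates form 1 merged column, and for the same reason no replicate could be left out. Limits: 1 cell line, 1 condition, 1 Start-seq library, calls without read counts.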

Other observations

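After CACCTG had been found 3 times at CDH1 and EPCAM, the count was extended to the lists, and each step here was chosen after seeing the data. The lists were counted in 2 ways. In the first, over every gene TSS on the gene's strand in the loci, 36 of 66 epithelial gene TSSs (54.5%) and 4 of 16 mesenchymal gene TSSs (25.0%) held at least 1 match. The second, which took 1 gene TSS for each gene because loci can hold repeated and neighboring TSSs, gave 34 of 57 (59.6%) and 1 of 9 (11.1%). Over all 10391 gene TSSs, 20.3% held at least 1 match, and the 2 mesenchymal shares lay on either side of it. The mesenchymal share thus rests on few TSSs and on the way of counting.

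In the second count, 18 of 57 epithelial gene TSSs (31.6%) held 2 or more matches and 7 (12.3%) held 3 or more, against 3.25% and 0.577% of all gene TSSs. Of 6229 gene TSSs of genes with FPKM of at least 10, 20.1% held at least 1 match. The lists were unequal, with 7 of 8 desmosome and keratin genes, 9 of 12 membrane proteins, 10 of 17 tight junction and polarity genes, 7 of 12 regulators and 1 of 8 adherens junction partners holding a match. The genes with 3 or more were CRB3 and CLDN7 with 5 each, INADL and SPINT2 with 4 each, and AP1M2, TMEM125 and MARVELD3 with 3 each. In all, 3 E-box cores were searched. CAGCTG was held by 17.5% of the 57 and 16.4% of all gene TSSs, and CACGTG by 5.26% and 9.55%. These are descriptions of letters, not tested, and binding was not measured here.

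The stretch before the RefSeq start of CRB3, a polarity gene, was chosen for its matches, which are in capitals. This RefSeq start was not placed on the build of the calls, and all 5 matches of its window lie in these 250 nts.
CRB3, GRCh38.p14, chr19:6464021-6464270, plus strand: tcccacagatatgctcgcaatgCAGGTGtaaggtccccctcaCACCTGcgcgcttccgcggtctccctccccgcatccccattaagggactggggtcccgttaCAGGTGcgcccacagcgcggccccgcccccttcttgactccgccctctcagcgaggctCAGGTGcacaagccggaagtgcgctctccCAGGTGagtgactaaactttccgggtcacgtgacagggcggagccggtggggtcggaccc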
